A study of Mus musculus with 9 samples.

Results

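Plin2, Hilpda, Cideb, Agpat2, Dgat2 and Lipe, genes of lipid droplets and triglyceride turnover, were described in AML12 cells, a mouse hepatocyte line. They were chosen by gene symbol, 6 of the 10260 symbols that the deposited tables list, and the rule uses no measured value, although they were chosen with earlier results of these data known. RNA was sequenced from 9 samples in 3 groups of 3: untreated controls, cells exposed to 0.2 mM PA and 0.4 mM OA for 24 h (PA/OA), and cells pretreated for 30 min with 100 nM Ang(1-7), an angiotensin peptide, and then exposed to those fatty acids. PA and OA are read here as palmitic and oleic acid, and the labels describe their use as a model of hepatocyte fat accumulation. All groups are 1 cell line, and no sample is labelled as given a fatty acid carrier, so effects of the acids and of a carrier cannot be told apart. Separate cultures are not mentioned in the labels, and p-values here therefore reflect sample-to-sample spread that may be technical.

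A lipid droplet is a core of triglyceride and sterol ester inside a single layer of phospholipid that carries coat proteins. Hepatocytes take up fatty acids, join them to glycerol in the endoplasmic reticulum through a series of acyltransferases, and bud the product off as droplets. Lipases then release the fatty acids for oxidation or for secretion with lipoproteins. PLIN2 is the main coat protein of hepatocyte droplets and is stabilised by lipid, HILPDA is a small droplet protein that inhibits the lipase ATGL, and CIDEB acts in droplet and lipoprotein maturation. AGPAT2 makes phosphatidic acid, DGAT2 adds the last acyl chain of triglyceride, and Lipe encodes hormone-sensitive lipase, which cleaves diacylglycerol.

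Promoters are shown for Plin2 and Hilpda, the members with the clearest difference between fatty acid and control libraries, and for Cideb, whose level was highest in the Ang(1-7) group. They come from RefSeq (GRCm38.p6), span 250 bases before to 50 after an annotated start, and were found for 5 of the 6 members. The window of Plin2 is chr4:86670010-86670309 (minus strand), that of Hilpda chr6:29272376-29272675 (plus strand) and that of Cideb chr14:55758375-55758674 (minus strand). The Hilpda window is that of the transcript NM_023516.5, which held nearly all Hilpda counts, and the annotated start of the Plin2 window lies 1 base from that of NM_007408.3, which was counted less than another Plin2 transcript. Capitals mark matches on either strand to the GC box GGGCGG, the E-box CACGTG, the TATA box TATAAA, and the hypoxia response element cores ACGTG and GCGTG. The core ACGTG also lies inside the E-box.
Plin2: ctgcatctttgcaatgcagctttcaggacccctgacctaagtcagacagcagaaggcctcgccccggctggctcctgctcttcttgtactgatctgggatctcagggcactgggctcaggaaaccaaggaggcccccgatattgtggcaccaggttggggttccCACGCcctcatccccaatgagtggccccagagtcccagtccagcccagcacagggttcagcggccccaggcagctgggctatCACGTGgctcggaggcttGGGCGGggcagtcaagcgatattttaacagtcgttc
Hilpda: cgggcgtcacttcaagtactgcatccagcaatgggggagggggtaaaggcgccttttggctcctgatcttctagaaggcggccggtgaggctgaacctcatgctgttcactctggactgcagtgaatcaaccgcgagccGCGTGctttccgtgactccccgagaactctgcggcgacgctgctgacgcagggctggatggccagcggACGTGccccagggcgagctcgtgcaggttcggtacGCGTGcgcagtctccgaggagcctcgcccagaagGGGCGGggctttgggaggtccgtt
Cideb: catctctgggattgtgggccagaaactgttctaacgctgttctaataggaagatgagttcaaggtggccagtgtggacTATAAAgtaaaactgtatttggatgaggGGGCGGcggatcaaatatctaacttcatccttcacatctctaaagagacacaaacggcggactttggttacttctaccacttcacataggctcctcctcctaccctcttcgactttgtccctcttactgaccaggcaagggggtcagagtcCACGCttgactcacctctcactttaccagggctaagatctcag
Counting the start base as 1, the Plin2 window held an E-box at -4 and a GC box at 15, and 7.15% and 35.7% of all 32851 promoters in the table held these motifs. It also held GCGTG at -86, on the other strand and so printed as its reverse complement. The Hilpda window held ACGTG at -43, GCGTG at -111 and -8 and a GC box at 27, against 19.6% of promoters with ACGTG and 32.4% with GCGTG. Cideb had a TATAAA match at -172 (13.6% of promoters), a GC box at -144 and GCGTG at 8. A direct-repeat PPAR response element was also searched, and it was in none of these windows and in 0.0396% of all promoters. A match is a description of letters and not of binding.

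The libraries held between 24759184 and 28704499 listed counts. Of the hepatocyte markers, Trf was abundant, with 11934 to 24120 counts, while Alb had 80 to 550 and 5 of the 10 markers were not listed in any table. Ang(1-7) 2 and 3 held transcripts of nervous tissue: all 10 listed markers had counts above 0 there, while Ang(1-7) 1 had 4 of them above 0 and every PA/OA library had 3. Nefl, a neurofilament gene, had 923 and 477 counts in these libraries, 0 in the others with fatty acids, and 4 or fewer in controls. Of the 4 listed markers of fibroblasts and stellate cells, the collagen genes Col1a2 and Col3a1 were also present in Ang(1-7) 2 and 3. Col1a2 had 28 and 30 counts and Col3a1 had 71 and 31, both at 0 in Ang(1-7) 1 and in PA/OA. The other markers of that list were not confined to these libraries. Col1a1 had 36, 40 and 30 counts in Ang(1-7) 1 to 3 and 15 in PA/OA 2. Des had 135 to 339 counts in the libraries with fatty acids. The summed level of the nervous tissue markers was 126 to 200 CPM (counts scaled to library size) in the Ang(1-7) group and 132 to 138 CPM in PA/OA, most of it from Mbp, which was present in every library. Of 8 adipocyte markers, Cidec and Fabp4 were listed, in the table of both fatty acid groups alone. They summed to at most 0.957 CPM, so these markers of fat cells were near 0 in the libraries with fatty acids. Levels of adipocyte markers in controls are not given. In bulk samples, fewer cells of a type and less RNA per cell cannot be told apart.

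Exposure to PA and OA without peptide was compared with no treatment to ask how the fatty acids went with the expression of droplet genes. Plin2 rose 2.45-fold and was the 1 called member of the 5 tested, where edgeR's quasi-likelihood test called 5.05% of all 6213 genes tested at an adjusted p under 0.05, 2.82% as higher and 2.24% as lower. Hilpda was 1.57-fold and Dgat2 1.31-fold as high as in controls, and neither passed, although Plin2, Hilpda and Dgat2 had an unadjusted p under 0.05, as did 19.4% of all genes. The 3 PA/OA libraries lay above the 3 controls for Plin2, Hilpda and Dgat2, a pattern that 12.2% of all tested genes showed in this direction and 11.6% in the other. Cideb and Agpat2 overlapped between the groups. The median log2 change of the 5 members was 0.64, beside 0.01 over all genes tested. Some summed cell type markers also differed between these groups without overlap. The 4 cholangiocyte markers summed to 1568 to 1711 CPM in PA/OA and 1993 to 2135 CPM in controls, mostly Krt7 and Krt19. Sox9 (440 to 1199 counts in PA/OA, 482 to 650 in controls) and Spp1 (102 to 214 and 57 to 106) overlapped. Both had their highest counts in PA/OA. The 3 macrophage markers summed to 674 to 816 CPM in PA/OA and 587 to 626 CPM in controls, mostly Cd14. Cd68 (77 to 126 counts in PA/OA, 39 to 112 in controls) and Lyz2 (35 to 106 and 26 to 150) overlapped, and Lyz2 was highest in control 3. The 4 listed hepatocyte markers summed to 610 to 720 and 467 to 558 CPM, mostly Trf. The other listed hepatocyte markers went the other way from Trf. Ttr, a plasma protein gene of hepatocytes, had 64 to 125 counts in PA/OA and 233 to 422 in controls. Hnf4a had 111 to 157 and 158 to 251 counts, and Alb had 80 to 208 and 172 to 325, which overlapped. The part of the markers in the values of the members was not tested.

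Plin2 was counted through 1 predicted transcript, XM_006537557.1, in the tables with controls. This transcript had 118, 112 and 73 counts in the controls, 319, 191 and 208 in the PA/OA samples, and 195, 82 and 207 in the Ang(1-7) samples, each in the order 1 to 3. PA/OA 1 was the highest of all, control 3 the lowest, and Ang(1-7) 2 lay among the controls. With trimmed mean scaling the level was 3.78 ± 0.856 CPM in controls and 9.28 ± 2.65 CPM in PA/OA (SD, n = 3 each). The log2 change was 1.29 with an SE of 0.35 and a 95% interval of 0.56 to 2.03 (edgeR quasi-likelihood test, adjusted p = 0.0386). The authors' deposited table gives this transcript a log2 fold change of 1.27 and an unadjusted p of 5.15e-05. The call rested on every library, since leaving out any 1 of the 6 gave an adjusted p of 0.0611 to 0.154, with log2 changes of 1.03 to 1.43. It also ended in limma-voom (adjusted p = 0.050004) and in a fit of all 9 samples (0.325), which shares 1 estimate of spread with the Ang(1-7) libraries.

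**Figure D1:**
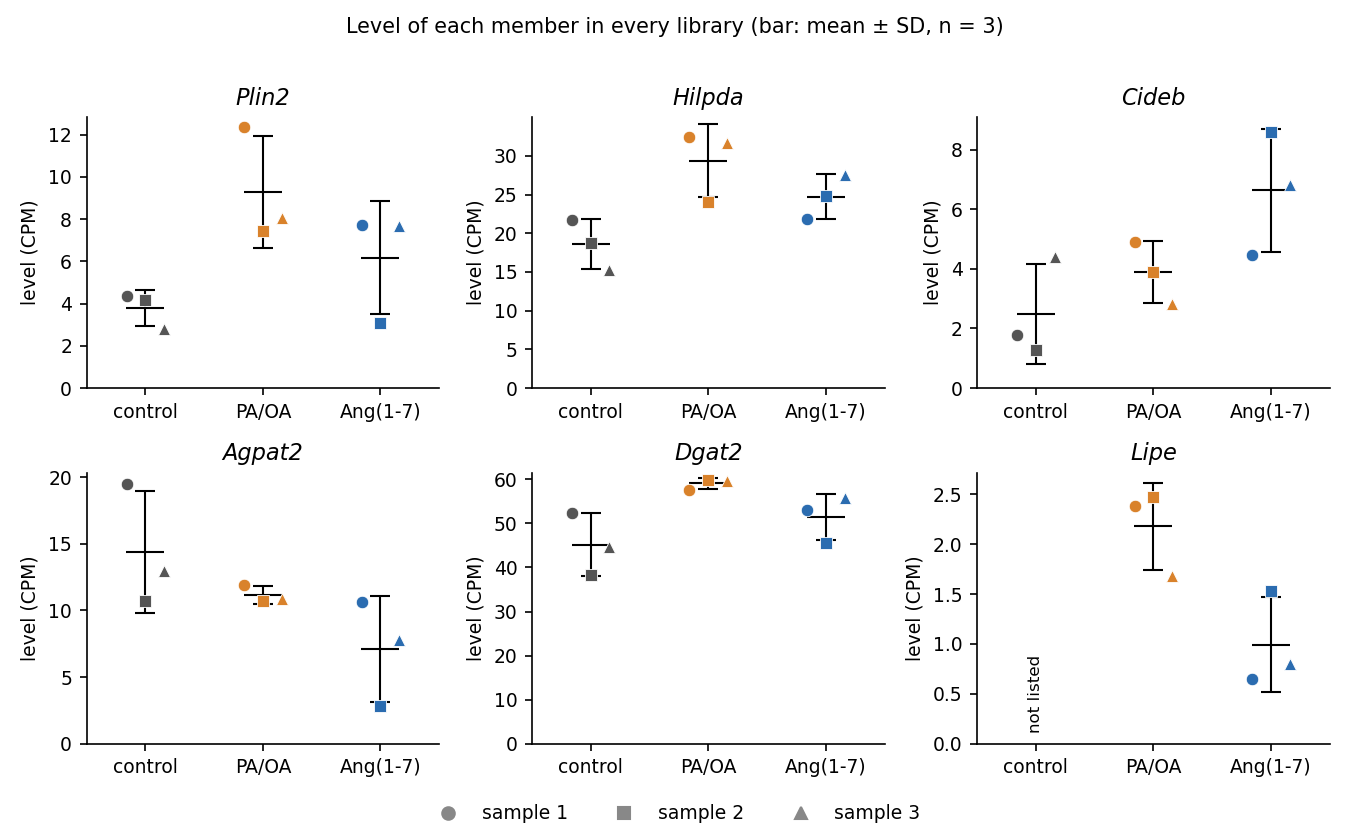
Level of each gene in every library, in CPM, with points for samples 1 to 3 and bars for the mean ± SD of 3 samples; the vertical axes start at 0. Plin2, Hilpda, Cideb, Agpat2 and Dgat2 are scaled by trimmed means over transcripts in all 3 tables, and Lipe, which no table with controls lists, by listed totals. All PA/OA points of Plin2, Hilpda and Dgat2 lie above the controls, and Ang(1-7) 2 is the lowest library of Agpat2.

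Hilpda, through NM_023516.5, had 588, 505 and 400 counts in the controls, 839, 615 and 816 with PA/OA alone, and 550, 663 and 742 with the peptide. The lowest PA/OA library exceeded the highest control, and after scaling Ang(1-7) 1 and control 1 were level at 21.8 and 21.7 CPM. The change in PA/OA against control was 0.65 on the log2 scale (SE 0.19, 95% interval 0.25 to 1.06, edgeR adjusted p = 0.0534). DESeq2 called it (adjusted p = 0.0206), and so did edgeR on curated transcripts alone (0.0406). Why these settings differed from the main fit was not tested. Dgat2 had 1419, 1028 and 1169 counts in controls, 1490, 1536 and 1539 in PA/OA, and 1337, 1214 and 1505 in Ang(1-7). In counts Ang(1-7) 3 exceeded PA/OA 1. After trimmed mean scaling the PA/OA libraries stood close together above both other groups. Their SD was 1.29 CPM around 59.1, against 7.13 around 45.2 in controls. The log2 change from control to PA/OA was 0.39 with a 95% interval of 0.10 to 0.67 (edgeR adjusted p = 0.113).

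Cideb had 48, 34 and 115 counts in the controls, 127, 100 and 73 with PA/OA alone, and 113, 229 and 184 with the peptide. Control 3 was as high as Ang(1-7) 1 and above PA/OA 2 and 3, and the 2 libraries with nervous tissue transcripts, Ang(1-7) 2 and 3, were the highest. The log2 change in PA/OA against control was 0.64, with a 95% interval of -0.45 to 1.74 (edgeR adjusted p = 0.554). It was 1.35 without control 3 and 0.33 without control 2. Cideb lies opposite Nop9, a gene for an RNA-binding protein of the nucleolus, and 1136 of its 1488 exon bases in GENCODE M21 are also exon bases of Nop9 on the other strand. Nop9 had 2903 to 4255 counts per library. Whether the counting used strand is not given in the sources used here, so reads of these genes may not be told apart and Cideb values are uncertain. The log2 change of Nop9 was -0.15 in PA/OA against control, -0.10 in Ang(1-7) against PA/OA and -0.26 in Ang(1-7) against control, and edgeR called none of these (adjusted p = 0.390, 0.969 and 0.416).

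Agpat2 had 527, 287 and 339 counts in controls, 308, 274 and 280 in PA/OA, and 269, 76 and 210 in Ang(1-7) 1 to 3. Ang(1-7) 2 was far below every other library, and control 1 far above. Its log2 change in PA/OA against control was -0.37 (95% interval -0.91 to 0.17, edgeR adjusted p = 0.482), and -0.09 without control 1. Lipe was listed in the table of both fatty acid groups alone, whose lowest listed mean was 5.17 counts, against 56.8 and 59.5 in the tables with controls. Its level in controls is therefore not given. Lipe had 62, 62 and 43 counts with PA/OA alone and 16, 44 and 21 with the peptide. The Ang(1-7) libraries all lay below PA/OA on the CPM scale, Ang(1-7) 2 and PA/OA 3 being nearest to each other.

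The spread within groups was larger than counting error for some members and groups and not for others. The SD of Agpat2 was 31.8% of the mean in controls, where counting would give 5.10%, and 58.1% in Ang(1-7), where counting would give 7.35%. In PA/OA it was 4.63%, within the counting error of 5.90%. Cideb varied by 67.5% in controls (counting 12.3%), and the main Plin2 transcript by 46.8% in Ang(1-7) (counting 7.87%). Per kilobase of the matched GENCODE transcript, Dgat2 and Hilpda were the highest members in every group. Levels in PA/OA were 30.1 ± 4.44 CPM per kb for Hilpda and 26.3 ± 0.912 for Dgat2 (SD, n = 3), whose ranges overlapped. Agpat2 followed with 7.54 ± 0.349 CPM per kb, Cideb with 3.22 ± 0.838, the curated Plin2 transcript with 1.29 ± 0.259 and Lipe with 0.603 ± 0.120. The main Plin2 transcript has no matched length and was left out of this order.

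Ang(1-7) before the fatty acids was compared with the fatty acids alone to ask whether the peptide went with a different level of these genes. No member of the 6 passed edgeR's quasi-likelihood test, 0 had an unadjusted p under 0.05, and DESeq2 and limma-voom also called 0 members. Over all 9261 genes tested, edgeR called 0.0% and 2.55% had an unadjusted p under 0.05, while DESeq2 called 3 genes. The log2 change was below 0 for 5 members and above 0 for Cideb, with a median of -0.28 beside -0.01 over all genes tested. After trimmed mean scaling, Dgat2 and Lipe were lower in all 3 Ang(1-7) libraries than in any PA/OA library. So were 6.37% of all tested genes (4.6% were higher without overlap, 11.0% in both directions together). Scaled by listed totals, the groups overlapped for Dgat2, at up to 25.4 CPM per kb in Ang(1-7) and from 25.3 in PA/OA. The intervals leave room for changes of either sign in all 6 members.

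Plin2 summed over its 3 listed transcripts was 419, 291 and 289 counts with PA/OA alone and 312, 137 and 371 with the peptide. Ang(1-7) 2 had the lowest sum, and the other Ang(1-7) libraries lay within the PA/OA range. The log2 change was -0.31 (SE 0.38, 95% interval -1.16 to 0.54, edgeR adjusted p = 0.965). Without Ang(1-7) 2 it was 0.03. The transcripts that the sum takes in also mattered, since the log2 change was -0.59 for XM_006537557.1 and 0.40 for NM_007408.3, both uncalled in edgeR's test of each transcript on its own.

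The 3 Plin2 transcripts made up different shares of the reads. XM_006537557.1 took 76.1%, 65.6% and 72.0% of Plin2 counts with PA/OA alone and 62.5%, 59.9% and 55.8% with the peptide, lower in each Ang(1-7) library than in any PA/OA library. The means were 71.2% ± 5.28 and 59.4% ± 3.37 (SD, n = 3), with a two-sided exact permutation p of 0.10, the smallest that 3 against 3 can give. The same permutation test gave p of 0.60 for the share of NM_007408.3 and 0.90 for that of XM_011249907.2. How often transcripts of other genes differ in share without overlap was not counted. NM_007408.3, the curated transcript, had 72, 67 and 48 counts in PA/OA and 94, 9 and 147 in Ang(1-7). Its share was 6.57% in Ang(1-7) 2 (exact 95% binomial interval 3.05% to 12.1%) and 39.6% in Ang(1-7) 3 (34.6% to 44.8%), so Ang(1-7) libraries differed from each other by more than counting error. XM_011249907.2 had 46 counts, 33.6% of the total, in Ang(1-7) 2 and 17 to 33 counts elsewhere. How reads shared by the transcripts were assigned is not given in the sources used here, and the intervals cover counting error only. Hilpda had no such variation, with NM_023516.5 at 97.8% to 99.3% of its counts in the 6 libraries.

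**Figure D2:**
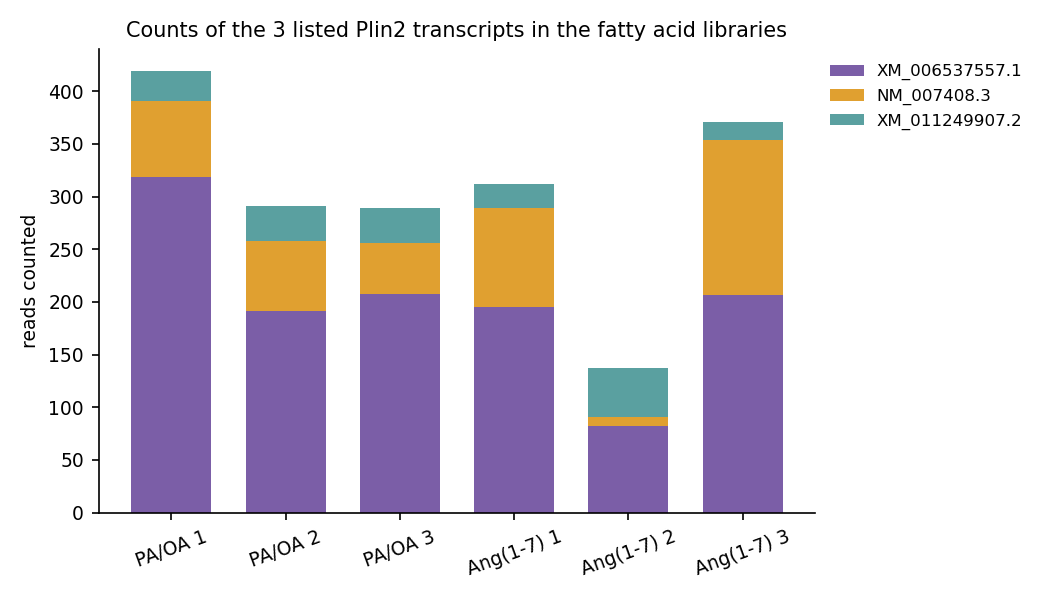
Reads counted for the 3 listed Plin2 transcripts in each PA/OA and Ang(1-7) library, stacked from 0. The sum is 419 in PA/OA 1 and 137 in Ang(1-7) 2, where NM_007408.3 has 9 reads and XM_011249907.2 has 46.

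Hilpda was 29.8 ± 4.76 CPM in PA/OA and 25.1 ± 3.05 in Ang(1-7), a log2 change of -0.25 (95% interval -0.71 to 0.21, edgeR adjusted p = 0.965). Dgat2 was 59.0 ± 1.05 CPM in PA/OA and 51.4 ± 5.25 in Ang(1-7), a change of -0.20 (interval -0.53 to 0.13). Without Ang(1-7) 2 the change of Dgat2 was -0.11. Cideb was 1.71-fold as high with the peptide, a log2 change of 0.77 (interval -0.09 to 1.64, unadjusted p = 0.0726, edgeR adjusted p = 0.965). The authors' deposited table gives Cideb an unadjusted p of 0.0441 in this comparison. Without Ang(1-7) 2 and 3, the libraries with nervous tissue transcripts, the log2 change of Cideb was 0.21, a fit in which the lone Ang(1-7) 1 is assumed to vary like the PA/OA group. The part of those transcripts in the Cideb values was not tested.

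Agpat2 was 7.09 ± 3.92 CPM with the peptide and 11.1 ± 0.717 CPM without it, a log2 change of -0.65 (95% interval -1.62 to 0.31, edgeR adjusted p = 0.965). Without Ang(1-7) 2 the change was -0.27, and without Ang(1-7) 2 and 3 it was -0.06. Lipe was 1.02 ± 0.554 CPM with the peptide and 2.16 ± 0.422 CPM without it, a change of -1.07 (interval -2.52 to 0.37). Lipe was not lowest in the libraries with nervous tissue transcripts. Without both of them its change was -1.76, a value that rests on the 16 counts of Ang(1-7) 1 alone. In GENCODE M21 an antisense gene, 4732471J01Rik, shares 918 of the 5886 exon bases of Lipe, and it is not in the tables used here. Egfl7, on the other strand of Agpat2, shares 64 of the 2130 exon bases of Agpat2.

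**Figure D3:**
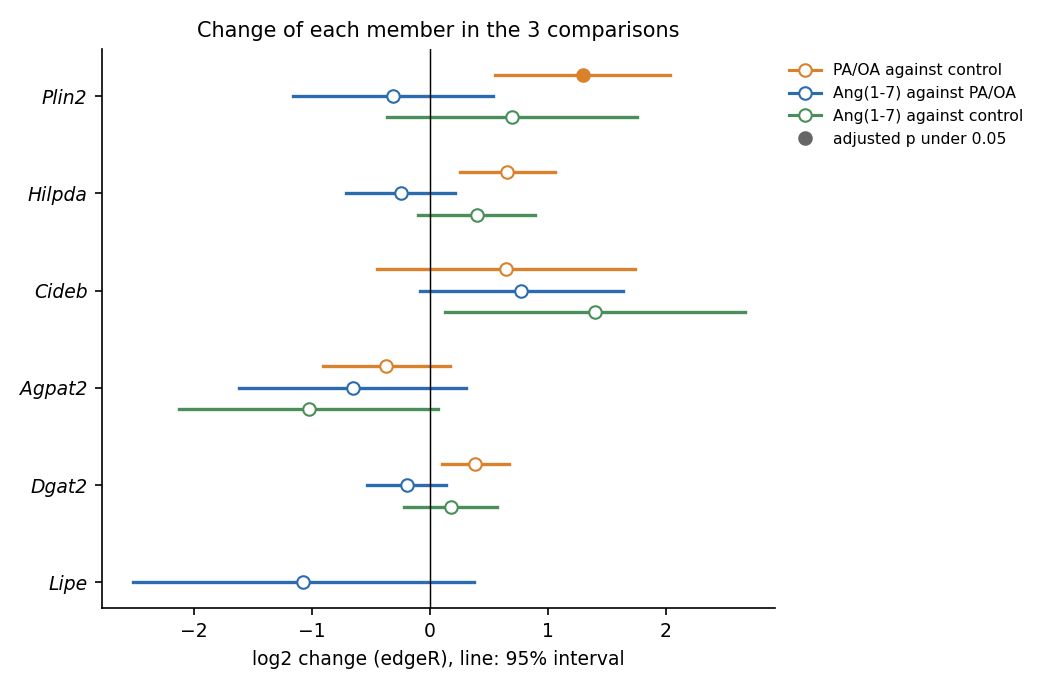
Log2 change of each gene in the 3 comparisons (horizontal axis) with its 95% interval from edgeR; filled points passed an adjusted p of 0.05. Plin2 in PA/OA against control, at 1.29, is the filled point, and all 6 intervals of Ang(1-7) against PA/OA include 0.

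Cells given both peptide and fatty acids were also set against untreated cells, a comparison that shares its controls with the first and its Ang(1-7) libraries with the second. No member of 5 passed in edgeR, where 0.245% of 6134 genes tested did, and limma-voom and DESeq2 also called 0, DESeq2 giving no adjusted p for Plin2 and Cideb. Cideb had an unadjusted p under 0.05, as did 14.9% of all tested genes. It was 2.48 ± 1.68 CPM in controls and 6.54 ± 1.99 CPM in Ang(1-7), a log2 change of 1.40 (95% interval 0.13 to 2.67, edgeR adjusted p = 0.296). Its groups did not overlap on the CPM scale, as in 13.2% of all tested genes in this direction, although Ang(1-7) 1 and control 3 were nearly level. The change was 2.11 without control 3 and 0.84 without Ang(1-7) 2 and 3.

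After trimmed mean scaling, Agpat2 was lower in all Ang(1-7) libraries than in any control, as were 13.3% of all tested genes. Ang(1-7) 1 and control 2 were nearly level, at 10.66 and 10.68 CPM. Scaled by listed totals the groups overlapped, at up to 7.30 CPM per kb in Ang(1-7) and from 7.10 in controls. The log2 change of Agpat2 was -1.03 (interval -2.12 to 0.07, edgeR adjusted p = 0.358). It was -0.65 without Ang(1-7) 2, -1.46 without Ang(1-7) 1 and -0.44 without both Ang(1-7) 2 and 3. Plin2 differed from control by 0.69 (interval -0.37 to 1.76, adjusted p = 0.494), and by 1.02 without Ang(1-7) 2. Hilpda differed by 0.40 (interval -0.10 to 0.89) and Dgat2 by 0.17 (interval -0.22 to 0.57). Set side by side on the log2 scale, the differences of PA/OA and of Ang(1-7) from control were 1.29 and 0.69 for Plin2, 0.65 and 0.40 for Hilpda, 0.39 and 0.17 for Dgat2, 0.64 and 1.40 for Cideb, and -0.37 and -1.03 for Agpat2. The second value was nearer 0 for Plin2, Hilpda and Dgat2 and farther from 0 for Cideb and Agpat2. Without Ang(1-7) 2 and 3 the second value was 0.84 for Cideb and -0.44 for Agpat2. Both fatty acid groups compared directly gave no call for any of these genes, nor for XM_006537557.1, the Plin2 transcript behind the values against control (log2 change -0.59, edgeR adjusted p = 0.996 with each transcript tested on its own).

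Of 44 genes of droplets, triglyceride synthesis, lipolysis and secretion, 18 were tested in PA/OA against control, 23 in Ang(1-7) against PA/OA and 18 in Ang(1-7) against control. In PA/OA against control 2 rose, 0 fell and 16 were not called by edgeR, with a median log2 change of 0.19. Over all genes tested, 2.82% were called higher and 2.24% lower, and the median was 0.01. The genes that rose were Plin2 and Apob, the apolipoprotein that carries triglyceride out of hepatocytes, which went from 94.2 ± 2.92 to 188 ± 15.7 CPM (log2 change 1.00, SE 0.09, adjusted p = 5.91e-07). Among 6 droplet genes, Plin3, a coat protein of small droplets, differed by 0.08 (SE 0.07) and Fitm2, which aids droplet budding, by -0.07 (SE 0.10). Both were named after their values were seen. Of 8 triglyceride synthesis genes 0 were called, with log2 changes from -0.82 to 0.69, and Dgat2 had the lowest p. Dgat1, the other diacylglycerol acyltransferase, named after its values were seen, was 2.88 ± 0.865 CPM in controls and 3.82 ± 0.360 in PA/OA (adjusted p = 0.713). Of 3 lipolysis genes 0 were called. Lipa, the lysosomal acid lipase, differed by -0.61 (SE 0.36, adjusted p = 0.378).

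With the peptide against PA/OA alone, 0 of the 23 tested genes were called by edgeR, 0 had an unadjusted p under 0.05, and the median log2 change was -0.16. Over all genes tested these were 0.0%, 2.55% and -0.01, and no gene of any kind was called. The genes of lowest p by role were Cideb, Agpat2, Lipe and Apob, and Apob differed by 0.09 (SE 0.12). Against control, Apob was called, with a log2 change of 1.07 (SE 0.10, adjusted p = 0.00560). That call ended without any 1 of the controls (adjusted p = 0.0935, 0.0831 and 0.0827 without controls 1 to 3), while the log2 change stayed at 1.05, 1.08 and 1.08. G0s2, an inhibitor of the lipase ATGL and the lipolysis gene of lowest p there, differed from control by -0.27 (SE 0.13, adjusted p = 0.389). The list holds the members themselves, and its counts are a description.

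**Figure D4:**
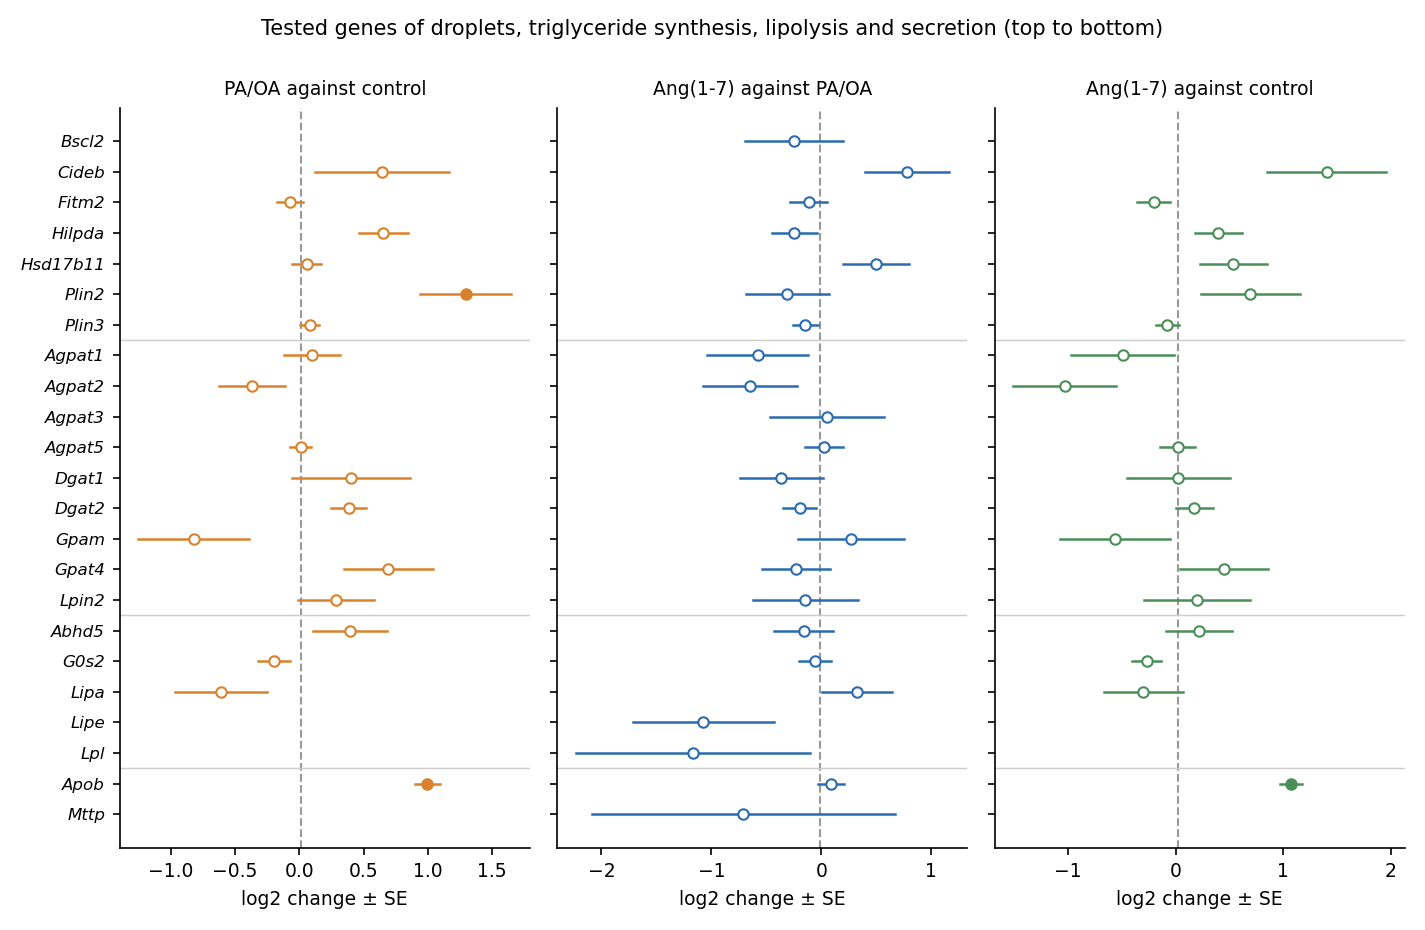
Log2 change ± SE of each tested gene in the 3 comparisons, with droplet, synthesis, lipolysis and secretion genes from top to bottom; the dashed line is the median of all genes tested and filled points passed an adjusted p of 0.05. Plin2 and Apob are filled in PA/OA against control, Apob in Ang(1-7) against control, and none in Ang(1-7) against PA/OA.

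The genes whose log2 levels followed each member most closely over the 9 libraries were read from 5797 other named genes. For Plin2 they were Ybey, Cebpd and Tm4sf4, with Pearson r of 0.95, 0.93 and 0.93. For Hilpda they were Slc25a20, the mitochondrial carnitine-acylcarnitine carrier, Tmf1 and Csrp1, at 0.92, 0.89 and 0.89. For Dgat2 they were Kank2, Tmem176b and Prss23, at 0.95, 0.94 and 0.93, and for Cideb Alcam, Dnajc16 and Fam160b1, at 0.95, 0.94 and 0.93. Agpat2 was closest to Uqcc2, Samd1 and Ddb1, each at 0.98. The libraries fall into 3 groups and share their depth, so these values describe likeness over 9 points and nothing of shared function.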

How the data were processed

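The authors deposited whole-number counts by RefSeq transcript in 3 tables, each covering a pair of groups. The submitters' processing notes name HISAT2 2.2.5, HTSeq 0.11.2 and bcl2fastq, and a human build although the transcripts are mouse. Each deposited table adds the authors' log2 fold changes, with p-values that are not adjusted, and its header names no test. Besides those given above, this unadjusted p of an unnamed test was under 0.05 for further members. In PA/OA against control it was 0.000511 for Hilpda and 0.00454 for Dgat2. In Ang(1-7) against control it was 0.00610 for Cideb and 0.00753 for Agpat2. The sources used here do not give the annotation release or the strand and multi-mapping options. Columns were matched to samples by name. The symbol of Plin2 carries its gene number in the tables and was matched through it.

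Counts were summed per symbol and tested within each table with the quasi-likelihood F test of edgeR 4.0.16 (R 4.3.3), after filterByExpr and TMM (trimmed mean) scaling, with Benjamini-Hochberg adjustment over all 6213, 9261 and 6134 genes tested and a threshold of 0.05. Intervals are the log2 change with 95% limits of its model error. DESeq2 1.42.0, limma 3.58.1 and further alternatives are in the closing section. The fit was tested on simulated data: of 200 genes changed 2-fold it recovered 62.5%, 32.0% and 42.0% in PA/OA against control, Ang(1-7) against PA/OA and Ang(1-7) against control. The changed genes were drawn above a floor of mean count, so these shares do not cover genes as low as Lipe. Always named were the 6 members, any pathway gene called, the gene of lowest p in each role and the 3 genes most like each member. Members and lists were chosen with earlier results of these data known.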

Additional observations from a re-analysis of the deposited data

How the results depend on the processing

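In PA/OA against control, 314 genes and 1 member were called. DESeq2 called 533 and 2, limma-voom 311 and 0, and a fit of all 9 samples 33 and 0. Leaving out 1 library gave 99 to 397 genes and 0 members each time. In Ang(1-7) against PA/OA, 0 genes were called, 3 by DESeq2 and 0 to 18 with 1 library left out (18 without Ang(1-7) 1), and 0 members in every alternative. In Ang(1-7) against control, 15 genes were called, 259 by DESeq2, 100 in a fit of all 9 samples, 27 on curated transcripts, 229 without both Ang(1-7) 2 and 3, and 4 to 624 with 1 library left out (624 without Ang(1-7) 2), and 0 members in every alternative. The cause was not tested.

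Signs turned in 7 of 394 gene values. In Ang(1-7) against PA/OA, Plin2 was 0.40 for NM_007408.3, 0.39 on curated transcripts and -0.57 to 0.025 with 1 library left out (0.025 without Ang(1-7) 2), and G0s2 was -0.11 to 0.021 (0.021 without PA/OA 1). Apob through XM_006515078.2 was -0.82 against PA/OA and -0.080 against control. Lipa against control was -0.59 to 0.017 (0.017 without control 1). None passed the test under these settings, and the cause was not tested. The replicate number as a block gave 303, 0 and 10 genes and 1, 0 and 0 members in the 3 comparisons and changed no member's call. Deviations of same-numbered samples had correlations near 0 (r of -0.04 to 0.03). In PA/OA against control these were 0.0105 to 0.0178, above the other pairs (-0.0124 to 0.0005). Whether the numbers pair samples cannot be told from such values. Curated transcripts hold no Plin2 in tables with controls. Low counts limit Lipe, and its level in controls is not given.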

Other observations

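Agpat2 followed many genes at once: 333 of 5797 other named genes had r above 0.9 with it over the 9 libraries, against 1 to 12 for the other members listed in all tables. Without Ang(1-7) 2, where Agpat2 had 76 counts, the number was 48, a check chosen after the data were seen. For Plin2 it went from 6 to 68 when that library was left out, and the gene closest to Plin2 was then Ier3, an immediate early gene, at r of 0.98 over 8 libraries.

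Other droplet and triglyceride genes appeared at low counts in the table of both fatty acid groups alone. Cidec, a droplet fusion gene of fat cells, had 0, 23 and 10 counts with PA/OA alone and 7, 0 and 7 with the peptide, too few for the filter on low counts.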
